A study of Mus musculus with 8 samples.

Results

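Oxidative phosphorylation subunits are the nuclear-encoded proteins that build the respiratory chain and the ATP synthase of mitochondria. They were taken by gene symbol, as every gene whose symbol begins with Ndufa, Ndufb, Ndufc, Ndufs, Ndufv, Uqcr, Atp5 or with Cox and a digit from 4 to 8, together with Sdha, Sdhb, Sdhc and Sdhd and without the Ndufaf assembly factors. This gave 90 of the 30738 genes measured. Of these, 80 encode subunits of complexes I to V, 1 (Cox7a2l) encodes a factor that joins complexes III and IV into a supercomplex, and 9 are processed copies or paralogs outside the complexes. The symbol rule itself uses no measured value, but the members were chosen with earlier results of these data known. Where a gene had several clusters the one with the highest mean over the 8 arrays was taken. Ndufs6, Ndufb4 and Ndufa11 have no cluster of their own in the annotation and were not analysed here.

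The study measured RNA on 8 microarrays from primary mouse cultures in which radial glial progenitors were differentiated toward ependymal cells, the ciliated cells that line the brain ventricles. Arrays titled untreated (n = 4) came from DMEM/F12 medium with 2% FBS and antibiotics, and arrays titled EGF (n = 4) from the same medium with 20 ng/ml epidermal growth factor, added when differentiation began, for 2 weeks in all. The sample source names disagree with these titles, giving DMSO for the untreated arrays and MLN4924, an inhibitor of the NEDD8-activating enzyme, for the EGF arrays. Groups follow the titles, and from the labels alone the agent cannot be told apart. The labels leave unsaid whether the 4 samples of a group came from separate cultures or animals. Every p-value below therefore measures only the spread among these samples, and that spread may be technical.

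Checked against their markers, the untreated arrays carried a multiciliated program and the EGF arrays had lost most of it. All 12 multiciliated ependymal markers fell, with a summed log2 signal of 15.9 to 16.5 on the untreated arrays and 9.39 to 9.57 on the EGF arrays. All 12 microglial markers fell as well, with 16.6 to 17.4 against 10.97 to 11.95, and 7 of 8 neuronal markers fell. Of 6 choroid plexus markers 3 fell and none rose, and of 6 oligodendrocyte lineage markers 3 rose and 1 fell on the deposited values. With each array centred on its median 1 oligodendrocyte lineage marker rose and 1 fell. Of 8 astrocyte markers 6 rose and 2 fell, and the summed level was 16.9 to 17.0 against 17.2 to 17.5. In such bulk cultures fewer cells of a type and less RNA per cell cannot be told apart, and the part of a changed cell make-up in the results below was not tested.

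Oxidative phosphorylation passes electrons from NADH and succinate along complexes I, II, III and IV to oxygen. Complexes I, III and IV pump protons out of the mitochondrial matrix as electrons move, and complex V, the ATP synthase, lets the protons back and makes ATP. Several small subunits of complex IV and of the ATP synthase exist as alternative paralogs that differ between tissues or are induced in low oxygen. Motile cilia use ATP to drive their dynein motors.

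Most subunit genes rose in the EGF arrays by modest amounts. Of the 90 genes 54 rose (60%), 8 fell (8.89%) and 28 did not pass the test, which was limma's moderated test at a Benjamini-Hochberg adjusted p of 0.05, the adjustment running over every gene on the array. Over all genes 39.7% rose and 20.7% fell, 60.3% in all. The median log2 change of the members, EGF minus untreated, was 0.40, a ratio of 1.32, against 0.168 over all genes. The 4 EGF values lay wholly apart from the 4 untreated values in 65 of the 90 genes, 72.2%, compared with 54.0% of all genes.

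At least 2-fold rises were seen in 11 members on the deposited values, and such rises made up 6.25% of all genes. None of the 90 fell by at least 2-fold, while 7.42% of all genes did. The average log2 signal over the 90 genes was 9.81, 9.82, 9.79 and 9.74 on untreated arrays 1 to 4 and 10.24, 10.25, 10.16 and 10.20 on EGF arrays 1 to 4. Each EGF array stood above each untreated array in this average.

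**Figure D1:**
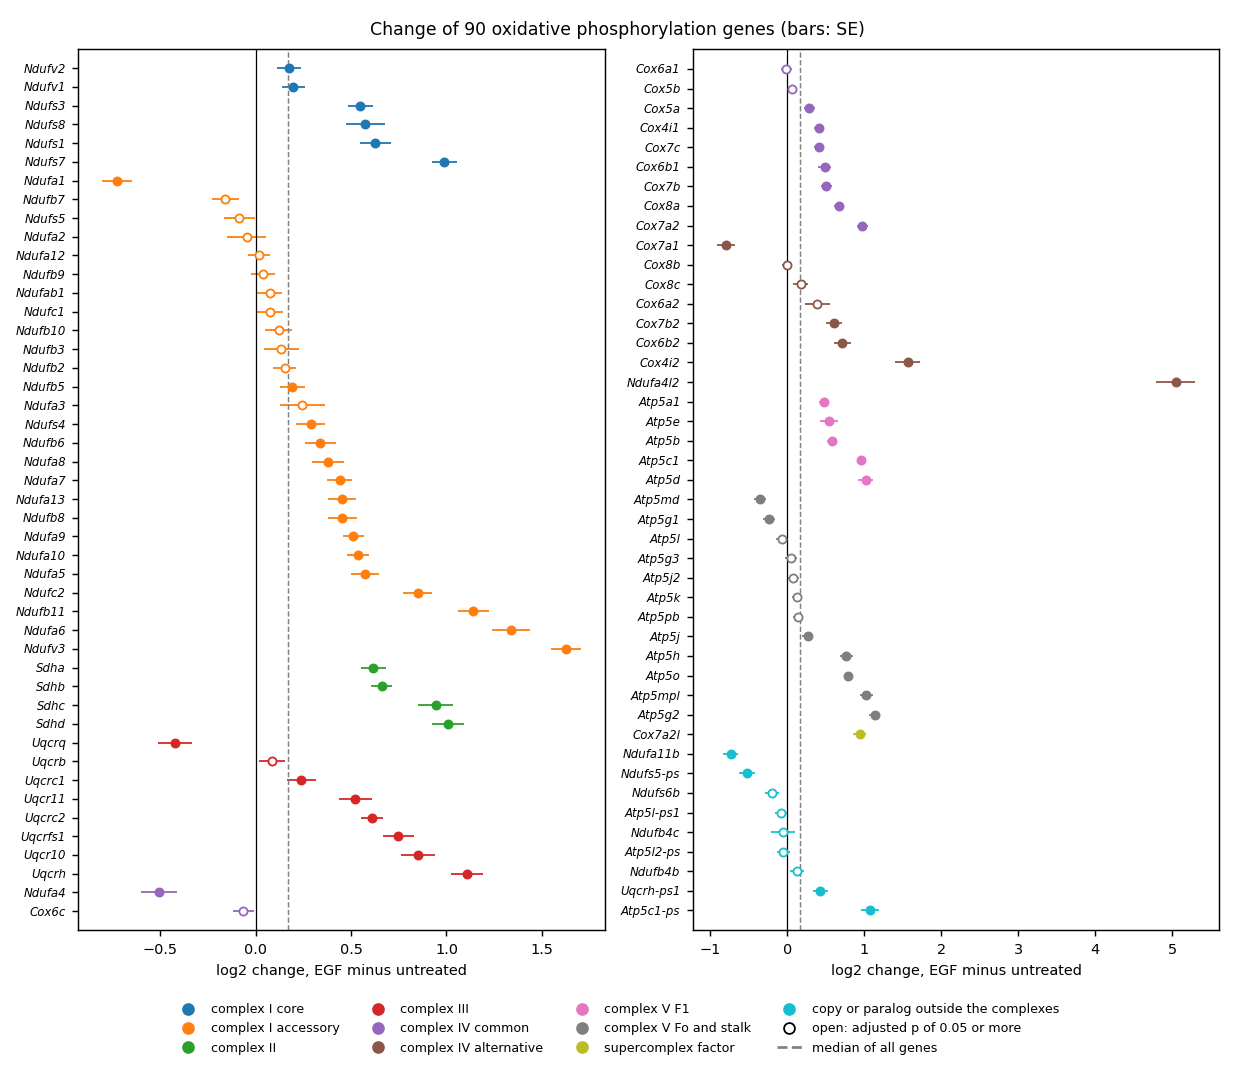
Log2 change (EGF minus untreated, x axis) of each of the 90 genes by role, as points with standard errors; filled points passed the test and open points did not. Most filled points lie right of 0 and of the dashed line at 0.168, the median of all genes, and 1 gene, Ndufa4l2, stands at 5.05 on an x axis that is wider in the right panel.

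The deposited arrays do not share 1 median, since untreated arrays have medians of 4.56 to 4.60 and EGF arrays of 4.71 to 4.82, so the counts were also taken under other scalings. After a further quantile normalization 53 members rose and 10 fell, beside 23.7% and 24.8% of all genes. With each array centred on its median 44 rose and 16 fell, beside 18.7% and 27.8%. After cyclic loess 47 rose and 15 fell, beside 20.6% and 27.3%. These 3 scalings put the median of all genes at 0.00828, -0.0200 and -0.0109, and the median of the members at 0.28, 0.215 and 0.258. Under all 4 scalings 44 members rose and 8 fell. Rises of at least 2-fold numbered 11 on the deposited values, 7 after quantile normalization, 4 with arrays centred and 6 after cyclic loess. On the deposited values 6.25% of all genes rose that much. The share of all genes was not computed for such rises under the other scalings, nor for calls held under all 4. Those counts thus cannot be set beside the whole array. The sign turned in 16 members, of which Ndufv2 alone had passed on the deposited values. Centring lowered each log2 change by the same 0.19, so small rises shrank most in proportion. With arrays centred 10 members lost their call, namely Ndufb5, Ndufs4, Ndufb6, Ndufa8, Ndufv1, Ndufv2, Uqcrc1, Cox5a, Atp5j and Uqcrh-ps1.

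**Figure D2:**
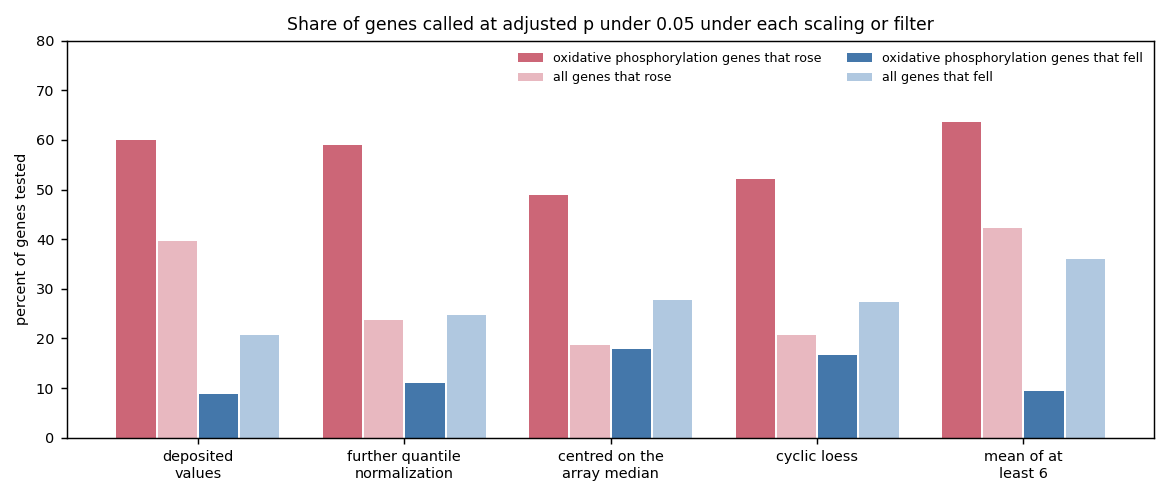
Percent of genes (y axis) that rose or fell at an adjusted p under 0.05 under the deposited values, 3 other scalings and a filter on dim clusters, with the 90 oxidative phosphorylation genes in dark bars and all genes tested in pale bars. The dark red bars stand above the pale red bars in every setting, and the gap between the falling shares narrows when arrays are centred on their median (17.8% of members, 27.8% of all genes).

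The median change of the members was higher at higher signal. It was 0.22 for the 26 members with a mean log2 signal below 8, 0.359 for the 38 between 8 and 12, and 0.524 for the 26 at 12 or more. Medians of all genes in the same ranges were 0.177, 0.05 and 0.198. Among genes with a mean of at least 6, 54 of 85 members rose and 8 fell, beside 42.3% and 36.0% of the 14073 genes tested there.

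Complex I oxidises NADH, and its core subunits hold the flavin and iron-sulfur clusters that carry the electrons. All 6 measured nuclear core genes rose on the deposited values, where 39.7% of all genes rose. Their median change was 0.56, and 0.374 with arrays centred. Ndufs7, which holds the last iron-sulfur centre before ubiquinone, read 9.90, 9.79, 9.79 and 9.76 on the untreated arrays and 10.76, 10.85, 10.70 and 10.88 on the EGF arrays. It changed by 0.99 ± 0.07 (SE, adjusted p = 5.69e-07), a ratio of 1.98. Ndufs1, with several of the iron-sulfur clusters, went from 11.04, 10.81, 10.94 and 10.75 to 11.53, 11.62, 11.52 and 11.38, a change of 0.63 ± 0.08 (adjusted p = 9.32e-05). Both genes had every EGF array above every untreated array.

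Ndufs8, the iron-sulfur subunit that passes electrons on to Ndufs7, read 13.25, 13.22, 12.92 and 12.96 against 13.81, 13.74, 13.46 and 13.64, a change of 0.58 ± 0.10 (adjusted p = 8.86e-04). Its untreated and EGF groups both spanned over 0.3, and they still did not overlap. Ndufs3, a core subunit that carries no iron-sulfur centre, changed by 0.55 ± 0.07 (adjusted p = 4.78e-05).

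Ndufv1, the flavoprotein at which NADH is oxidised, moved much less. Its signal was 9.46, 9.55, 9.46 and 9.37 without EGF and 9.66, 9.68, 9.63 and 9.66 with it. The groups did not overlap and the change of 0.20 ± 0.06 passed (adjusted p = 0.0169), but it was 0.01 once arrays were centred on their medians. Ndufv2, its partner in the NADH-binding module, changed by 0.18 ± 0.06 (adjusted p = 0.0322) and by -0.01 after centring. The other 4 core genes rose under all 4 scalings, so the 2 genes of the NADH-binding flavoprotein pair were the ones whose call depended on the scaling.

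The 26 accessory subunits of complex I, which surround the core and stabilise it, were more mixed. Of these 14 rose (53.85%), 1 fell (3.85%) and 11 did not pass, where 39.7% of all genes rose and 20.7% fell. The accessory median was 0.27, and 10 rose under all 4 scalings. With arrays centred the median was 0.08 and 4 fell, and after cyclic loess it was 0.17 and 3 fell. Changes among the 11 that did not pass ran from -0.16 to 0.25. The largest rise was that of Ndufv3, a small subunit of the peripheral arm, at 11.92, 11.87, 12.12 and 11.91 on the untreated arrays and 13.62, 13.56, 13.45 and 13.69 on the EGF arrays. Its log2 change was 1.63 ± 0.08 (adjusted p = 5.94e-08), a ratio of 3.08. Thus the weakest EGF array exceeded the strongest untreated array by more than the whole spread within either group.

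Ndufa6, which anchors the mitochondrial acyl carrier protein to complex I, came next. It read 9.42, 9.69, 9.26 and 9.35 without EGF and 10.66, 10.85, 10.67 and 10.89 with EGF, a change of 1.34 ± 0.10 (adjusted p = 1.42e-06). Ndufb11, a subunit of the membrane arm, went from 9.08, 8.99, 9.14 and 8.80 to 10.10, 10.13, 10.12 and 10.22, a change of 1.14 ± 0.08 (adjusted p = 9.00e-07). Ndufa1, a small membrane subunit needed for assembly of complex I, was the 1 accessory gene that fell. Its values were 9.44, 9.58, 9.43 and 9.31 on the untreated arrays against 8.83, 8.61, 8.65 and 8.77, and it fell by 0.73 ± 0.08 (adjusted p = 2.22e-05). For these 3 genes the groups did not overlap, and their calls were the same under all 4 scalings.

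Smaller rises spread over both arms of the complex. Ndufc2, a membrane arm subunit, went from a mean of 11.3 to 12.1, a change of 0.85 ± 0.08 (adjusted p = 4.92e-06). Ndufa5, Ndufa10 and Ndufa9, matrix-facing subunits, changed by 0.57 ± 0.07, 0.54 ± 0.06 and 0.51 ± 0.06. Ndufs4, a subunit whose loss causes Leigh-like disease in mice, changed by 0.29 ± 0.08 (adjusted p = 0.00937), and it did not pass with arrays centred (0.10) or after cyclic loess (0.19). Among genes that did not pass, Ndufab1, the acyl carrier protein that Ndufa6 binds, read 7.03, 7.14, 7.23 and 7.13 against 7.16, 7.30, 7.19 and 7.17, with a change of 0.07 ± 0.07. The untreated and EGF values of Ndufab1 overlapped, unlike those of Ndufa6.

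Promoter windows of 250 bases before to 50 after the start site were available from RefSeq (GRCm38.p6) for 67 of the 90 genes. Ndufa4l2, Cox4i1 and Cox4i2 had none. The windows of the largest risers and fallers with an entry are shown. Among genes with a window these moved farthest in opposite directions within 1 set of complexes. Short motifs of factors known for respiratory genes or for low oxygen were searched on both strands, and capitals mark a match. Ndufv3 lies at chr17:31519865-31520164 on the plus strand, with the hypoxia response core ACGTG starting 12 bases after the start site. Ndufa6 lies at chr15:82354242-82354541 on the minus strand, with the NRF1 core GCGCATGC, read on the opposite strand, starting at -83. Ndufa1 lies at chrX:37191189-37191488 on the minus strand, with ACGTG at -202. Cox7a1, described with complex IV, lies at chr7:30183921-30184220 on the plus strand, with ACGTG on the opposite strand at 10.
Ndufv3: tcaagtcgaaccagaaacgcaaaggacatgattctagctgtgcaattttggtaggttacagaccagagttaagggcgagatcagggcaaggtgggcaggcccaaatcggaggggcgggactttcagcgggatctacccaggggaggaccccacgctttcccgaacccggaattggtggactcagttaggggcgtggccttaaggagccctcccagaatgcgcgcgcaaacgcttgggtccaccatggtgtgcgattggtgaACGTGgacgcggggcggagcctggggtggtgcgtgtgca
Ndufa6: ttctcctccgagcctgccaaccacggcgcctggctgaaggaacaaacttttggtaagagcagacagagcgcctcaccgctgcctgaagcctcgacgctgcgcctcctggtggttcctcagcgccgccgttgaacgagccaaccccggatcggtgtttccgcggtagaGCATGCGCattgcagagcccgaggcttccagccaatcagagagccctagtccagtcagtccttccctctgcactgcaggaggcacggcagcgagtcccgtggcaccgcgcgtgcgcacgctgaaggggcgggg
Ndufa1: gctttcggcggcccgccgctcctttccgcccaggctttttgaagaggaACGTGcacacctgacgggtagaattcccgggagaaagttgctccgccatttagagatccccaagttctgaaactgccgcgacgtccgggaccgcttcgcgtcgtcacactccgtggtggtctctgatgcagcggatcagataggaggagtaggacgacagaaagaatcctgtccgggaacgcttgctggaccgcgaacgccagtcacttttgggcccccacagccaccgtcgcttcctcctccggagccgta
Cox7a1: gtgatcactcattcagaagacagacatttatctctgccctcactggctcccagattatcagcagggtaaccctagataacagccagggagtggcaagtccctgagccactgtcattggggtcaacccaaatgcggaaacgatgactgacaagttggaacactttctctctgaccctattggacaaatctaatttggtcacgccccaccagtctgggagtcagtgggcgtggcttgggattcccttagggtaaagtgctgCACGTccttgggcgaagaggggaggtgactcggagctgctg

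The hypoxia response core, searched only as ACGTG, occurred in 25.4% of the 67 member windows and in 21.8% of the windows of 27025 genes. It was held by 8 of 44 that rose, 3 of 5 that fell and 6 of 18 that did not pass. Ndufa4l2 and Cox4i2 had no window and are not in these counts. The form GCGTG was not searched. ACGTG also lies inside the E-box CACGTG, so a match does not separate these motifs. The NRF1 core was present in 13.4% of member windows against 3.05%. The ETS motif CCGGAAG, bound by GABPA, was present in 25.4% against 9.93%, the ERRA motif AAGGTCA in 10.4% against 5.38%, and the YY1 motif AAGATGGCG in 8.96% against 1.64%. Among the 44 windows of members that rose, 6 held the NRF1 core, 12 the ETS motif, 2 the ERRA motif and 4 the YY1 motif. Among the 18 that did not pass these counts were 3, 4, 5 and 2, and among the 5 that fell 0, 1, 0 and 0. A match is a description of letters in the window only.

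Complex II, succinate dehydrogenase, links the tricarboxylic acid cycle to the chain and is encoded entirely in the nucleus. All 4 of its genes rose on the deposited values, where 39.7% of all genes rose. Their median was 0.80, and all 4 rose under all 4 scalings. Sdhd, a membrane anchor, read 11.97, 11.99, 11.90 and 11.65 on the untreated arrays and 12.93, 12.94, 12.81 and 12.87 on the EGF arrays, a change of 1.01 ± 0.08 (adjusted p = 2.96e-06). Sdhc, the other anchor, went from 9.88, 9.72, 9.80 and 9.94 to 10.82, 11.00, 10.70 and 10.59, a change of 0.94 ± 0.09 (adjusted p = 1.18e-05).

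The catalytic subunits of complex II changed by smaller amounts. Sdhb, the iron-sulfur subunit, moved from 9.83, 9.84, 9.81 and 9.89 to 10.48, 10.54, 10.53 and 10.46, by 0.66 ± 0.06 (adjusted p = 3.37e-06). Sdha, the flavoprotein that oxidises succinate, moved from 12.36, 12.25, 12.24 and 12.23 to 12.89, 12.97, 12.89 and 12.80, by 0.62 ± 0.06 (adjusted p = 1.44e-05). In all 4 genes the lowest EGF array was above the highest untreated array, and the differences in size between the 4 genes were not tested.

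Complex III hands electrons from ubiquinol to cytochrome c. Where 39.7% of all genes rose and 20.7% fell, 6 of its 8 genes taken by the symbol rule rose, 1 fell and 1 did not pass. The median of the 8 was 0.57. Cyc1, the cytochrome c1 subunit, lies outside that rule and was read with the electron carriers. It rose by 0.48 ± 0.06 (adjusted p = 6.02e-05). Uqcrh, the acidic hinge protein that helps cytochrome c1 meet cytochrome c, rose most. It read 11.75, 11.73, 11.54 and 11.55 on the untreated arrays and 12.75, 12.93, 12.69 and 12.63 on the EGF arrays, a change of 1.11 ± 0.08 (adjusted p = 1.64e-06). Uqcr10, a small subunit, went from 6.49, 6.60, 6.51 and 6.35 to 7.33, 7.52, 7.15 and 7.35, a change of 0.85 ± 0.09 (adjusted p = 1.65e-05).

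The catalytic and core proteins of complex III are better known than these small ones. Uqcrfs1, the Rieske iron-sulfur protein, read 8.45, 8.68, 8.70 and 8.52 against 9.37, 9.43, 9.18 and 9.36, a change of 0.75 ± 0.08 (adjusted p = 2.48e-05). Uqcrc2, a core protein, went from 12.55, 12.43, 12.56 and 12.46 to 13.11, 13.11, 13.10 and 13.12, a change of 0.61 ± 0.06 (adjusted p = 8.06e-06). Its partner Uqcrc1 changed by 0.24 ± 0.07 (adjusted p = 0.0185), and it did not pass after quantile normalization (0.02), with arrays centred (0.05) or after cyclic loess (0.12). Uqcrb, a small subunit near the quinone site, changed by 0.09 ± 0.07 and did not pass (adjusted p = 0.284).

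Uqcrq, a small subunit next to cytochrome b, went the other way. Its signal was 8.94, 9.03, 8.78 and 8.71 without EGF and 8.56, 8.51, 8.33 and 8.37 with EGF, with no overlap, and it fell by 0.42 ± 0.09 (adjusted p = 0.00232). Of the 6 rises of complex III 5 held under all 4 scalings, and so did the fall of Uqcrq.

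Complex IV, cytochrome c oxidase, passes the electrons to oxygen. Its common nuclear subunits, the forms used in most tissues, gave 7 rises, 1 fall and 3 genes that did not pass among 11. Over all genes 39.7% rose and 20.7% fell. The median of the 11 was 0.41. That median was 0.284 after quantile normalization, 0.225 with arrays centred and 0.291 after cyclic loess, and 2 fell under each of the last pair. Cox7a2, the common form of a small subunit at the dimer interface, rose most, from 11.66, 11.81, 11.65 and 11.57 to 12.76, 12.61, 12.62 and 12.61. Its change was 0.98 ± 0.07 (adjusted p = 1.10e-06). Cox8a, the smallest subunit, went from 14.28, 14.37, 14.27 and 14.24 to 14.94, 15.02, 14.91 and 14.98, a change of 0.67 ± 0.06 (adjusted p = 4.72e-06). The groups of both genes were well apart. Cox5a and Cox5b, the matrix-facing subunits 5a and 5b, changed by 0.29 ± 0.07 (adjusted p = 0.00583) and 0.07 ± 0.06 (adjusted p = 0.346). With arrays centred Cox5a did not pass. Cox7c rose by 0.41 ± 0.06 (adjusted p = 2.56e-04), and Cox6c read 8.50, 8.49, 8.47 and 8.44 against 8.42, 8.34, 8.44 and 8.44, a change of -0.07 ± 0.06 that did not pass (adjusted p = 0.326).

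Of the 8 alternative subunits of complex IV, 4 rose (50%), 1 fell (12.5%) and 3 did not pass, where 39.7% of all genes rose and 20.7% fell. Ndufa4l2 stood far above the rest. This gene is a paralog of Ndufa4 known to be induced by the low oxygen factor HIF-1, and it is grouped here with its paralog, a subunit of complex IV. Its values were 3.68, 4.07, 4.43 and 4.45 on the untreated arrays, below the medians of those arrays, and 9.17, 9.59, 8.47 and 9.59 on the EGF arrays. The fitted log2 change was 5.05 ± 0.26 (adjusted p = 8.23e-08). The untreated signal was not shown to be above background, so the change is better given as a bound. With each untreated value raised to the median of its array, a choice made after seeing the data, the signal was at least 24.6-fold higher with EGF, a log2 change of at least 4.62.

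Cox4i2, the form of subunit 4 associated with low oxygen and lung, also rose. It read 5.37, 5.49, 5.16 and 6.04 without EGF and 7.04, 7.04, 6.98 and 7.26 with EGF, a change of 1.57 ± 0.16 (adjusted p = 1.67e-05). Cox7a1, the heart and skeletal muscle form of subunit 7a, was the alternative gene that fell. Its values were 8.55, 9.03, 8.58 and 8.52 against 7.76, 7.87, 7.83 and 8.05, and it fell by 0.79 ± 0.12 (adjusted p = 2.36e-04). In each of the 3 genes all EGF arrays lay on 1 side of all untreated arrays.

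The other alternative forms are known mostly from muscle or testis. Cox6b2, known from testis, went from 7.62, 7.80, 7.99 and 7.68 to 8.45, 8.61, 8.27 and 8.63, a change of 0.72 ± 0.11 (adjusted p = 2.09e-04). Cox7b2 had means of 3.92 without EGF and 4.53 with EGF, both below the array medians, so no size of change is given for it although it passed (adjusted p = 4.77e-04). Cox8b, Cox8c and Cox6a2, known from muscle or testis, had means of 3.28, 4.87 and 4.20 on the untreated arrays and 3.28, 5.04 and 4.59 on the EGF arrays and did not pass. Striated muscle markers were also near the array medians, with 2 of 7 rising, 1 falling and a summed log2 level of 7.76 to 7.98 against 7.72 to 7.90. Under each of the 3 other scalings 0 muscle markers rose and 3 fell.

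Pericytes and mural cells are a known site of Ndufa4l2 and Cox4i2, so their markers were read beside these genes. Of 10 pericyte and mural markers Notch3 and Abcc9 rose, Pdgfrb, Anpep, Acta2 and Tagln fell, and 4 did not pass, with a median change of -0.04. Their summed log2 level was 17.3 to 17.7 on the untreated arrays and 15.6 to 15.9 on the EGF arrays, and nearly all of that sum was Acta2, the smooth muscle actin, with means of 17.3 and 15.5. Pdgfrb, a receptor that marks these cells, fell by 2.33 ± 0.17, and Notch3 rose by 2.06 ± 0.08. Kcnj8, Abcc9 and Vtn had means of 4.03, 3.93 and 4.54 without EGF and 4.14, 4.14 and 4.46 with EGF, at or below the array medians. Abcc9 did not pass under the 3 other scalings. Endothelial markers had a summed level of 7.64 to 7.94 against 7.14 to 7.25, with 3 of 6 rising and 2 falling on the deposited values. The 3 that rose, Cldn5, Tie1 and Pecam1, were dim, with means of 3.84, 4.44 and 4.98 on the EGF arrays. Under each of the 3 other scalings 1 endothelial marker rose and 2 fell. The part of these cells in the rise of Ndufa4l2 and Cox4i2 was not tested.

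Paralogs of 1 subunit can be compared within each array, where a constant offset of the array cancels but a rescaling that depends on signal does not. The log2 difference Ndufa4l2 minus Ndufa4 was -10.05, -9.45, -9.23 and -8.93 on the untreated arrays and -4.07, -3.48, -4.56 and -3.34 on the EGF arrays, a shift of 5.55 ± 0.37 (SE), and of at least 5.12 with the untreated Ndufa4l2 signal raised to the array medians. Ndufa4 itself, a subunit of complex IV once assigned to complex I, read 13.73, 13.52, 13.66 and 13.38 against 13.24, 13.07, 13.03 and 12.93. It fell by 0.51 ± 0.09 (limma, adjusted p = 0.00114) with no overlap. The paralog pair therefore moved in opposite directions, and both directions held under all 4 scalings.

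Both forms of subunit 4 rose, by unequal amounts. Cox4i1 read 7.77, 7.80, 7.76 and 7.73 on the untreated arrays and 8.25, 8.27, 8.17 and 8.02 on the EGF arrays, a change of 0.41 ± 0.07 (limma, adjusted p = 5.43e-04). Cox4i2 minus Cox4i1 was -2.40, -2.31, -2.60 and -1.69 without EGF and -1.21, -1.23, -1.19 and -0.76 with EGF, a shift of 1.15 ± 0.23. In subunit 7a the common form rose and the muscle form fell. Cox7a1 minus Cox7a2 was -3.11, -2.78, -3.07 and -3.05 against -5.00, -4.74, -4.79 and -4.56, a shift of -1.77 ± 0.12.

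**Figure D3:**
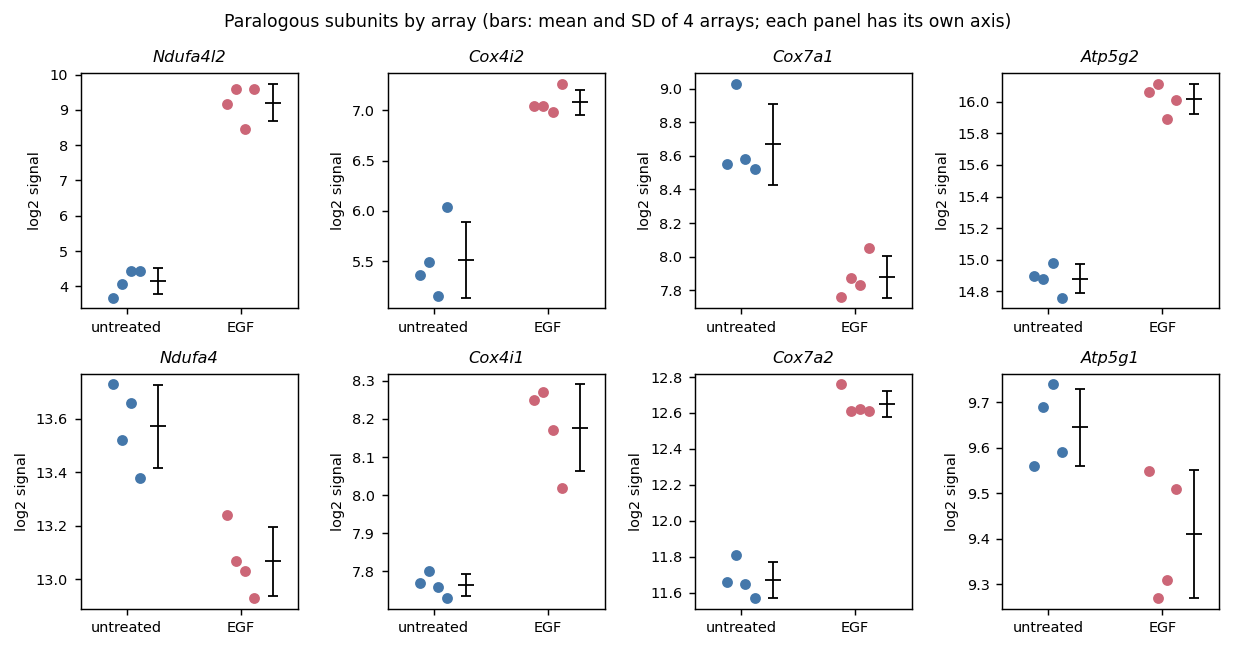
Log2 signal (y axis, own range in each panel) of 8 paralogous subunit genes on each untreated and EGF array, with the mean and SD of 4 arrays beside the points. Ndufa4l2, Cox4i2, Cox7a2, Cox4i1 and Atp5g2 lie higher on all 4 EGF arrays, and Ndufa4, Cox7a1 and Atp5g1 lie lower on all 4.

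In all 11 paralog pairs were compared with a two-sided exact permutation test over arrays. There were 6 pairs at an exact p of 0.0286, the smallest that 4 against 4 arrays allow. Adjusted over the 11 pairs this exact p became 0.0524, so no pair passed 0.05. Besides the 3 pairs above these were Cox8b minus Cox8a (-0.68 ± 0.06, with Cox8b dim), Atp5g1 minus Atp5g2 (-1.37 ± 0.09) and Atp5g2 minus Atp5g3 (1.09 ± 0.08). The other 5 pairs overlapped between groups. Their shifts were 0.40 ± 0.27 for Cox6a2 minus Cox6a1, 0.23 ± 0.14 for Cox6b2 minus Cox6b1, -0.04 ± 0.11 for Cox7a2l minus Cox7a2, 0.10 ± 0.11 for Cox7b2 minus Cox7b and -0.29 ± 0.13 for Atp5g1 minus Atp5g3.

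Cox7a2l, the supercomplex factor, rose much as Cox7a2 did. It went from 11.01, 10.94, 10.79 and 10.79 to 11.66, 11.88, 11.82 and 11.93, a change of 0.94 ± 0.08 (limma, adjusted p = 4.22e-06). Cox6a1, Cox6b1 and Cox7b, the common partners in the remaining pairs, changed by -0.01 ± 0.07, 0.49 ± 0.08 and 0.51 ± 0.07 (adjusted p = 0.911, 5.33e-04 and 1.79e-04).

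Complex V, the ATP synthase, has a catalytic F1 head and a membrane Fo part joined by stalks, and the parts are described apart. All 5 F1 genes rose on the deposited values, where 39.7% of all genes rose. Their median was 0.58, and all 5 rose under all 4 scalings. Atp5d, the delta subunit of the central stalk of F1, read 11.11, 11.38, 11.42 and 11.24 on the untreated arrays and 12.26, 12.34, 12.13 and 12.50 on the EGF arrays, a change of 1.02 ± 0.10 (adjusted p = 8.34e-06). Atp5c1, the gamma subunit that turns inside the head, went from 12.18, 12.18, 12.25 and 12.17 to 13.18, 13.10, 13.16 and 13.17, a change of 0.96 ± 0.06 (adjusted p = 2.17e-07). The values within each group of Atp5c1 spanned less than 0.1. Atp5a1 and Atp5b encode the alpha and beta subunits, which form the catalytic sites. Atp5a1 went from 14.41, 14.36, 14.40 and 14.29 to 14.80, 14.92, 14.80 and 14.84, a change of 0.48 ± 0.06 (adjusted p = 7.20e-05), which was 0.23 after quantile normalization. Atp5b went from 14.05, 14.06, 14.02 and 13.98 to 14.60, 14.66, 14.54 and 14.62, a change of 0.58 ± 0.06 (adjusted p = 1.12e-05). Atp5e, the epsilon subunit, varied more, with 7.04, 7.02, 6.58 and 6.76 against 7.53, 7.45, 7.20 and 7.40, a change of 0.55 ± 0.11 (adjusted p = 0.00241).

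Of the 12 Fo and peripheral stalk genes 5 rose (41.7%), 2 fell (16.7%) and 5 did not pass. These shares were near those over all genes, 39.7% and 20.7%. The Fo and stalk median was 0.13 on the deposited values and turned to -0.05 with arrays centred on their medians. It was 0.12 after quantile normalization and 0.01 after cyclic loess. Whether the Fo and stalk genes differ from the F1 genes as a group was not tested. Atp5mpl, a small membrane subunit, rose from 13.43, 13.36, 13.32 and 13.23 to 14.45, 14.52, 14.35 and 14.14, by 1.03 ± 0.09 (adjusted p = 4.13e-06). Atp5md, a small subunit involved in joining ATP synthases into dimers, went from 13.72, 13.77, 13.63 and 13.66 to 13.49, 13.39, 13.22 and 13.25, and fell by 0.36 ± 0.08 (adjusted p = 0.00246). Both kept their calls under all 4 scalings. In the peripheral stalk, which holds the head still, Atp5o (OSCP) read 9.53, 9.49, 9.43 and 9.48 against 10.26, 10.30, 10.26 and 10.27, a change of 0.79 ± 0.05 (adjusted p = 7.81e-07). Atp5h, the d subunit of that stalk, changed by 0.77 ± 0.09 (adjusted p = 3.33e-05) and Atp5j, its F6 subunit, by 0.27 ± 0.07 (adjusted p = 0.0121), which did not pass with arrays centred (0.08) or after cyclic loess (0.14). Atp5pb, the b subunit, changed by 0.14 ± 0.06 and did not pass (adjusted p = 0.0661), although its groups did not overlap.

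The membrane ring that turns with the proton flow is made of subunit c, and 3 genes, Atp5g1, Atp5g2 and Atp5g3, encode the same mature protein. Atp5g2 read 14.90, 14.88, 14.98 and 14.76 without EGF and 16.06, 16.11, 15.89 and 16.01 with EGF, a change of 1.14 ± 0.07 (adjusted p = 4.43e-07). Atp5g1 read 9.56, 9.69, 9.74 and 9.59 against 9.55, 9.27, 9.31 and 9.51, and it fell by 0.24 ± 0.08 (adjusted p = 0.0320), the groups being separated only by 9.56 against 9.55. Leaving out untreated array 2 or 3 or EGF array 2 or 3 ended this call, with adjusted p of 0.0762, 0.0847, 0.0751 and 0.0817. Atp5g3 read 11.03, 10.87, 11.00 and 10.83 against 10.98, 11.05, 11.06 and 10.84, and its change of 0.05 ± 0.08 did not pass (adjusted p = 0.575). Of the 3 subunit c genes, then, 1 rose and had groups far apart.

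Genes with more than 1 cluster gave a check between probes. The second cluster of Atp5g2, which lies on another chromosome and so may read a copy, averaged 14.5 without and 15.7 with EGF, a difference of 1.21. The second cluster of Atp5d averaged 5.57 and 6.06, a difference of 0.49. The brightest cluster of Atp5l carries a chromosome 5 label while the gene lies on chromosome 9, and its 3 clusters changed by -0.07, -0.02 and 0.18. Such clusters may share probes with processed copies, and their values are uncertain to that extent.

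The 9 copies and paralogs outside the complexes moved in both directions. Beside 39.7% and 20.7% of all genes, 2 of these rose (22.2%) and 2 fell (22.2%). The other 5 did not pass, and the median of the 9 was -0.06. That median was -0.14 after quantile normalization with 2 rises and 3 falls, and -0.25 with arrays centred and -0.17 after cyclic loess, each with 1 rise and 4 falls. Leaving out 1 array at a time gave -0.139 to -0.00583. Atp5c1-ps, a copy of the gamma subunit gene, went from 6.30, 6.06, 6.03 and 6.44 to 7.52, 7.17, 7.30 and 7.12, by 1.07 ± 0.12 (adjusted p = 2.26e-05), and Atp5c1 itself rose. Uqcrh-ps1 changed by 0.43 ± 0.10 (adjusted p = 0.00379) from a mean of 4.83 to 5.26, and it did not pass when arrays were centred or after cyclic loess. Ndufa11b, a paralog of Ndufa11, fell from 7.06, 7.29, 7.38 and 7.15 to 6.37, 6.56, 6.36 and 6.66, by 0.73 ± 0.10 (adjusted p = 8.85e-05). Ndufs5-ps fell by 0.53 ± 0.11 (adjusted p = 0.00204), while Ndufs5 changed by -0.085 ± 0.081 and did not pass (adjusted p = 0.376). Probes of a copy may also read its parent gene where the 2 share sequence, and probe sequences were not examined.

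Other mitochondrial genes were read from 6 lists to place the subunits. Each list count is to be set beside the shares over all genes. These were 39.7% rising and 20.7% falling on the deposited values, and 18.7% and 27.8% with arrays centred. Whether any list differs from all genes was not tested. The 42 measured assembly factors, which build the complexes and are not part of them, gave 17 rises, 11 falls and 14 that did not pass, with a median of 0.08. That median was -0.11 with arrays centred and -0.05 after cyclic loess. Ndufaf3, an assembly factor of complex I, went from 10.81, 10.82, 10.74 and 10.67 to 8.13, 7.97, 7.78 and 7.77 and fell by 2.85 ± 0.09 (adjusted p = 2.74e-09). Cox10, which makes heme A for complex IV, fell by 0.84 ± 0.07 (adjusted p = 3.42e-06). Acad9, needed for complex I assembly, rose by 1.05 ± 0.08, and Tmem70, an assembly factor of ATP synthase, by 0.90 ± 0.07 (adjusted p = 1.07e-06 and 1.49e-06). None of the 80 complex members fell by as much as Ndufaf3.

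Electron carriers and the enzymes that feed them, with Cyc1 of complex III in the list, gave 10 rises and 4 falls among 16. Their median was 0.35, and 0.165 with arrays centred. Coq9, a ubiquinone synthesis protein, rose by 1.32 ± 0.08 and Gpd2, the mitochondrial glycerol phosphate dehydrogenase, by 1.07 ± 0.07. Cycs, cytochrome c, fell from 12.54, 12.80, 12.62 and 12.71 to 12.13, 12.20, 11.85 and 11.86, by 0.66 ± 0.10 (adjusted p = 2.41e-04). Etfa, which brings electrons from fatty acid oxidation, fell by 0.91 ± 0.06 (adjusted p = 4.62e-07). The carrier between complexes III and IV thus fell while most subunits on either side rose.

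The tricarboxylic acid cycle and pyruvate dehydrogenase list gave 9 rises and 2 falls among 16, with a median of 0.28 that was 0.095 with arrays centred, where 6 rose and 5 fell. Idh3b, a subunit of isocitrate dehydrogenase, rose by 1.15 ± 0.06 and Cs, citrate synthase, by 1.03 ± 0.06. Suclg1 fell by 0.55 ± 0.07 and Ogdh, the first enzyme of the oxoglutarate dehydrogenase complex, by 0.26 ± 0.06. Regulators of mitochondrial biogenesis gave 9 rises and 6 falls among 18, with a median of 0.14 that was -0.05 with arrays centred, -0.00217 after cyclic loess and 0.0375 without dim clusters. Ppargc1a, the coactivator of this program, read 10.72, 10.67, 10.60 and 10.32 against 11.80, 11.97, 11.87 and 11.74 and rose by 1.27 ± 0.10 (adjusted p = 1.40e-06). Polg, the mitochondrial DNA polymerase, rose by 0.88 ± 0.06, whereas Tfb2m, a mitochondrial transcription factor, fell by 0.45 ± 0.09 and Slirp, which stabilises mitochondrial transcripts, by 0.36 ± 0.09.

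Import, channel and carrier genes gave 14 rises and 5 falls among 27, with a median of 0.16 that was -0.03 with arrays centred, where 10 rose and 9 fell. Timm44, part of the inner membrane import motor, rose by 1.42 ± 0.07 and Vdac1, the main outer membrane channel, by 1.19 ± 0.07, while Tomm7 fell by 0.68 ± 0.08 and Timm22 by 0.56 ± 0.08. The mitochondrially encoded subunits, which complete complexes I, III, IV and V, were not analysed here.

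Genes known to adjust the respiratory chain in low oxygen included rises far larger than those of most subunits. The 10 measured genes gave 5 rises, 2 falls and 3 that missed the threshold, with a median of 0.12 that turned to -0.07 with arrays centred and -0.03 after cyclic loess. Bnip3, a mitophagy receptor, read 8.85, 9.52, 9.44 and 9.98 on the untreated arrays and 13.47, 13.55, 13.53 and 13.39 on the EGF arrays, a change of 4.04 ± 0.19 (adjusted p = 5.01e-08). Pdk1, which shuts pyruvate dehydrogenase, went from 7.27, 7.44, 7.58 and 7.68 to 10.08, 9.98, 10.02 and 9.93, a change of 2.51 ± 0.09 (adjusted p = 7.04e-09). For both, as for Ndufa4l2 and Cox4i2, the groups lay far apart.

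Higd1a and Lonp1 belong to the same list. Higd1a, a complex IV interacting protein, rose by 1.52 ± 0.07, and Lonp1, the matrix protease that degrades Cox4i1, by 1.38 ± 0.06 (adjusted p = 6.03e-08 and 4.47e-08). Iscu, the scaffold for iron-sulfur clusters, fell by 0.93 ± 0.07, and Hif1a, the RNA of the oxygen-regulated subunit of HIF-1, by 0.72 ± 0.07 (adjusted p = 1.51e-06 and 8.97e-06). Oxygen and HIF-1 protein were not among the measurements used here.

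**Figure D4:**
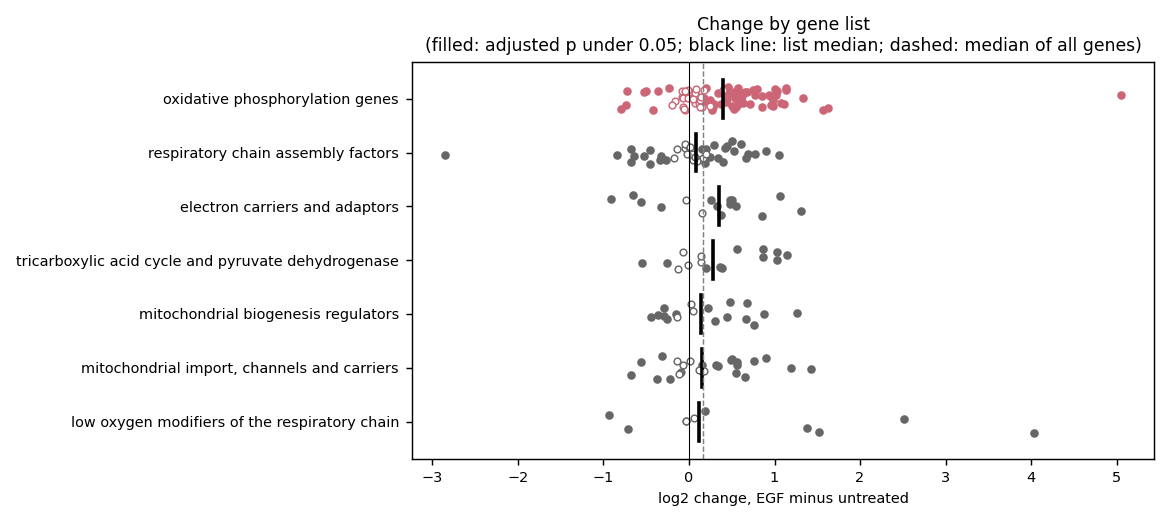
Log2 change (EGF minus untreated, x axis) of single genes in the oxidative phosphorylation set and 6 other mitochondrial lists; filled points passed the test, black lines mark list medians and the dashed line the median of all genes (0.168). The subunit median stands at 0.40 and that of the assembly factors at 0.08, and Bnip3 (4.04) and Ndufa4l2 (5.05) lie farthest right.

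The authors' deposited table of comparisons lists few of the subunit genes. The authors' deposited table holds 4136 clusters, all with a difference of at least 1 on the log2 scale, and 2 of the 90 members are in it. For Cox7a1 the authors' deposited table gives averages of 11.43 (ctrl) and 9.66 (gf), a difference of -1.77 with a false discovery rate of 0.0130. For Cox6b2 the authors' deposited table gives 7.28 and 8.39, a difference of 1.11 with a false discovery rate of 0.0440. Both have the direction found here, with the larger size in the authors' deposited table.

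The averages in the authors' deposited table did not match means of the deposited array values. Over its clusters the differences in the authors' deposited table and those of the arrays had the same sign in 85.0% of cases and correlated at 0.74 across clusters, which are not independent replicates. The median gap was 0.72 for the ctrl averages and 0.674 for the gf averages of the authors' deposited table. None of the 11 members that rose at least 2-fold on the unscaled array values, Ndufa4l2 among them, is in the authors' deposited table. For Bnip3 the authors' deposited table gives a difference of 1.20 with a p-value of 0.0228 and a false discovery rate of 0.119, beside the change of 4.04 found here. The sources used here do not give which arrays or steps lie behind the authors' deposited table.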

How the data were processed

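Per the labels, total RNA of 8 samples was biotin-labelled, 1 array each. The authors deposited log2 signals for 65956 transcript clusters; the submitters' processing notes name RMA, affy and limma and give neither version nor order. The log2 base was inferred from the values' range, since no header states it. How the arrays were centred is unknown, as is the build of the array annotation. Per the file headers, a second deposited table gives averages (log2), p-values and false discovery rates for ctrl and gf.

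Clusters with 1 gene in the platform annotation were named through RefSeq (GRCm38.p6): 31290 of 31292 matched, giving 30738 genes with the brightest cluster of each. Another 33142 clusters had no symbol and 1522 with several genes were left out. EGF and untreated arrays were compared on the deposited log2 values in limma 3.58.1 under R 4.3.3 (lmFit, eBayes; two-sided), p-values being adjusted by Benjamini-Hochberg across the 30738 genes and called under 0.05. Errors are SE. No detection calls were used here, the number of arrays limits the precision, and folds of dim clusters can be understated. Paralog pairs were tested by exact permutation over arrays (scipy 1.17.1).

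Members, roles and lists were chosen with earlier results of these data known. Genes are named by a fixed rule: in each role the 2 largest rises and 2 largest falls that passed, members of at least 2-fold change, all paralog pairs, all complex II genes, Ndufs1 and Ndufv1, and up to 2 rises and 2 falls of each list. Other members, the promoters' motifs and marker genes were singled out after their values were seen. On simulated data for this comparison (30738 genes) the steps found 31 of 67 genes shifted by 0.5 (log2), 66 of 67 shifted by 1 and 66 of 66 shifted by 2, and made 14 false calls. Only those genes were shifted in the simulation, while 60.3% of genes were called in the real comparison. The adjusted threshold thus required a smaller p in the simulation, so its recovery and false calls do not carry over to the real comparison. Results were recomputed under 3 other scalings, without dim clusters, with clusters of a gene averaged, with a trended and robust eBayes, with the replicate number as a block and without each array in turn.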

Additional observations from a re-analysis of the deposited data

Results flagged for a closer look

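In groups of 4 arrays, 1 array stood apart from the other 3 by more than Dixon's critical share of the group's whole range in 8 of 102 groups tested, and chance gives about 1 in 20. On the untreated arrays these were Atp5c1 in replicate 3 at 12.25 (others 12.17 to 12.18), Cox7a1 in replicate 2 at 9.03 (others 8.52 to 8.58), Cox8b in replicate 1 at 3.34 (others 3.26 to 3.27) and Sdha in replicate 1 at 12.36 (others 12.23 to 12.25). On the EGF arrays they were Cox6a2 in replicate 3 at 5.13 (others 4.34 to 4.45) and Cox7a2 in replicate 1 at 12.76 (others 12.61 to 12.62). Among paralog differences, Cox4i2 minus Cox4i1 was -0.76 in EGF replicate 4 (others -1.23 to -1.19), and Cox6a2 minus Cox6a1 was -9.57 in EGF replicate 3 (others -10.58 to -10.41). Atp5c1, Cox7a1, Sdha and Cox7a2 kept their direction and their call without the array named.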

How the results depend on the processing

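Scaling moved the results most. The median change of the subunit genes was 0.28 after quantile normalization, 0.215 with arrays centred and 0.258 after cyclic loess, and the count that fell was 16 with arrays centred and 15 after loess. In the same order of settings, centred then loess, list medians were -0.106 and -0.0477 (assembly factors), 0.165 and 0.194 (electron carriers), 0.095 and 0.168 (tricarboxylic acid cycle), -0.05 and -0.00217 (biogenesis), -0.03 and 0.0502 (import), and -0.0688 and -0.0300 (low oxygen genes). Quantile normalization gave 0.177 for the tricarboxylic acid cycle and 0.00828 for the low oxygen genes, and the filter on dim clusters 0.0375 for biogenesis. The Fo and stalk median was -0.0538 with arrays centred. Atp5g3 changed by -0.138 centred and -0.0529 after loess. After quantile normalization 7 paralog pairs had an exact permutation p of 0.0286, adjusted to 0.0449: Cox4i2 minus Cox4i1 (1.09), Ndufa4l2 minus Ndufa4 (5.62), Cox6b2 minus Cox6b1 (0.449), Cox7a1 minus Cox7a2 (-1.70), Cox8b minus Cox8a (-0.603, with Cox8b dim), Atp5g1 minus Atp5g2 (-1.23) and Atp5g2 minus Atp5g3 (0.932). That exact p is the smallest possible, and 6 of these pairs had it on the deposited values too. The adjusted value was lower only because Cox6b2 minus Cox6b1 joined them. Under quantile normalization Cox7a2l minus Cox7a2 was 0.005 and Cox7b2 minus Cox7b was -0.0720. The cause of these shifts was not tested. Leaving out 1 array at a time gave 52 to 57 rises, 7 to 8 falls and medians of 0.374 to 0.418. It turned the sign of Cox6a1 (-0.0375 to 0.0375), Cox8b (-0.0325 to 0.0375) and Cox7a2l minus Cox7a2 (-0.0867 to 0.0533). With 3 against 4 arrays the smallest exact p is 0.0571, so pair tests there cannot pass.

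Same-numbered arrays did not deviate together (correlations of -0.0843, -0.00321, -0.0542 and -0.026), and no array correlated best with its own number. With the replicate number as a block 53 subunit genes rose and 7 fell, Atp5g1 no longer passed (-0.235, limma adjusted p = 0.0751), and no other count of calls over the subunits or median moved by over 1.5 times except the falls of the Fo and stalk genes (1). With 4 pairs the smallest exact p is 0.125.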
